A study of Mus musculus with 4 samples.

Results

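The genes examined here are the nuclear genes for the 5 complexes of the mitochondrial respiratory chain, measured in retina of mice at 3 weeks of age. They were chosen by symbol, with no use of genotype: Nduf names for complex I, Sdha to Sdhd for complex II, Uqcr names and Cyc1 for complex III, Cox4 to Cox8 names for complex IV and Atp5 names for complex V, without pseudogenes marked -ps. Of 52636 genes in the deposited table, 98 carried such a symbol and 91 of these had a mean of at least 10 normalized counts over the libraries, 46 for complex I, 4 for II, 9 for III, 15 for IV and 17 for V. Polyadenylated RNA was sequenced in 4 libraries: 2 are labelled WT, for wild type, and 2 are labelled Q344X, for a mutation of autosomal dominant retinitis pigmentosa, in which photoreceptors degenerate. The labels leave out the kind of allele, its copy number, and the sex and litter of the mice, and they name no treatment in either group. Of 3 replicates per group at the start, 2 were kept per the design text because of RNA quality and outliers, whereas the protocol counts 3 Q344X mice and 2 WT mice.

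The respiratory chain sits in the inner mitochondrial membrane. Complex I takes electrons from NADH and complex II takes them from succinate, ubiquinone carries them to complex III, cytochrome c carries them to complex IV, which reduces oxygen, and complex V (ATP synthase) uses the proton gradient built by complexes I, III and IV to make ATP. Most subunits are encoded in the nucleus and imported, a smaller set is encoded by mitochondrial DNA, and dedicated assembly factors build each complex. Photoreceptors have a high demand for ATP and pack mitochondria into the inner segment.

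Counts assigned to genes came to 18452679 and 19706573 reads in WT replicates 1 and 2 and to 19034261 and 19346580 in Q344X replicates 1 and 2. Q344X replicate 2 stood apart in lens transcripts: the summed normalized count of 4 lens markers was 137449 and 156060 in WT, 120024 in Q344X replicate 1 and 4118 in Q344X replicate 2. All 8 rod markers were detected, with a sum of 501683 and 552054 in WT against 297752 and 333495 in Q344X. Of the 8, 3 were lower in both Q344X libraries (31.7% of all genes), and 2 of them passed the threshold (9.1% of all genes). The groups overlapped in 4, and 1 was higher in both Q344X libraries (31.4% of all genes). The sum was carried by a few genes: Gnat1, rod transducin, fell by 2.31 on the log2 scale (adjusted p = 0.00532, limma) and Sag, rod arrestin, was at -0.04. Of 6 cone markers 4 fell (9.1% of all genes), and their sum was 26376 and 23524 in WT against 10601 and 10547 in Q344X. The 6 ganglion cell markers, of which 1 rose (5.46% of all genes), summed to 11311 and 13113 against 18288 and 22382. The 4 pigment epithelium markers, of which 2 rose (Rpe65 and Tyr, against 5.46% of all genes), summed to 2113 and 2262 against 2904 and 3903. In RNA from whole retina, fewer cells of a type and less RNA per cell cannot be told apart, and the part of these shifts in the results that follow was not tested. A permutation test of 2 against 2 libraries cannot go below p = 0.333, so adjusted p-values come from limma, which shares variance between genes, with Benjamini-Hochberg adjustment over 16833 genes and a threshold of 0.05. Log2 fold changes are on the log2(normalized count + 1) scale, which understates changes of low genes, and the p-values measure the spread between libraries, which the labels do not tie to 1 animal each.

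Most respiratory chain genes had higher normalized counts in Q344X retina, but few passed the test. Of the 91 genes, 6 rose (Atp5o, Atp5l and Atp5g3 of complex V, Cox6c and Cox5b of complex IV and Sdhd of complex II) and 1 fell (Ndufaf5, an assembly factor of complex I). Among all genes tested, 5.46% were called higher, 9.1% lower and 14.6% in either direction. The 6 genes that rose make up a share close to that background, so the count of calls does not set the respiratory chain apart. The median log2 fold change of the 91 genes was 0.54, with a range from -0.98 to 1.28, against a median of 0.02 over all genes tested. It lay above 0 in 79 of the 91, against 51.2% of all genes. The 34 of the 91 with an unadjusted p under 0.05 by limma are a share close to the 34.7% of all genes, counting either direction. Of the 34, all but Ndufaf5 and Atp5s were higher in Q344X, and the share of all genes in that direction alone was not computed. In 54 genes both Q344X libraries were above both WT libraries (31.4% of all genes) and in 6 both were below (31.7% of all genes), while the groups overlapped in 31.

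**Figure D1:**
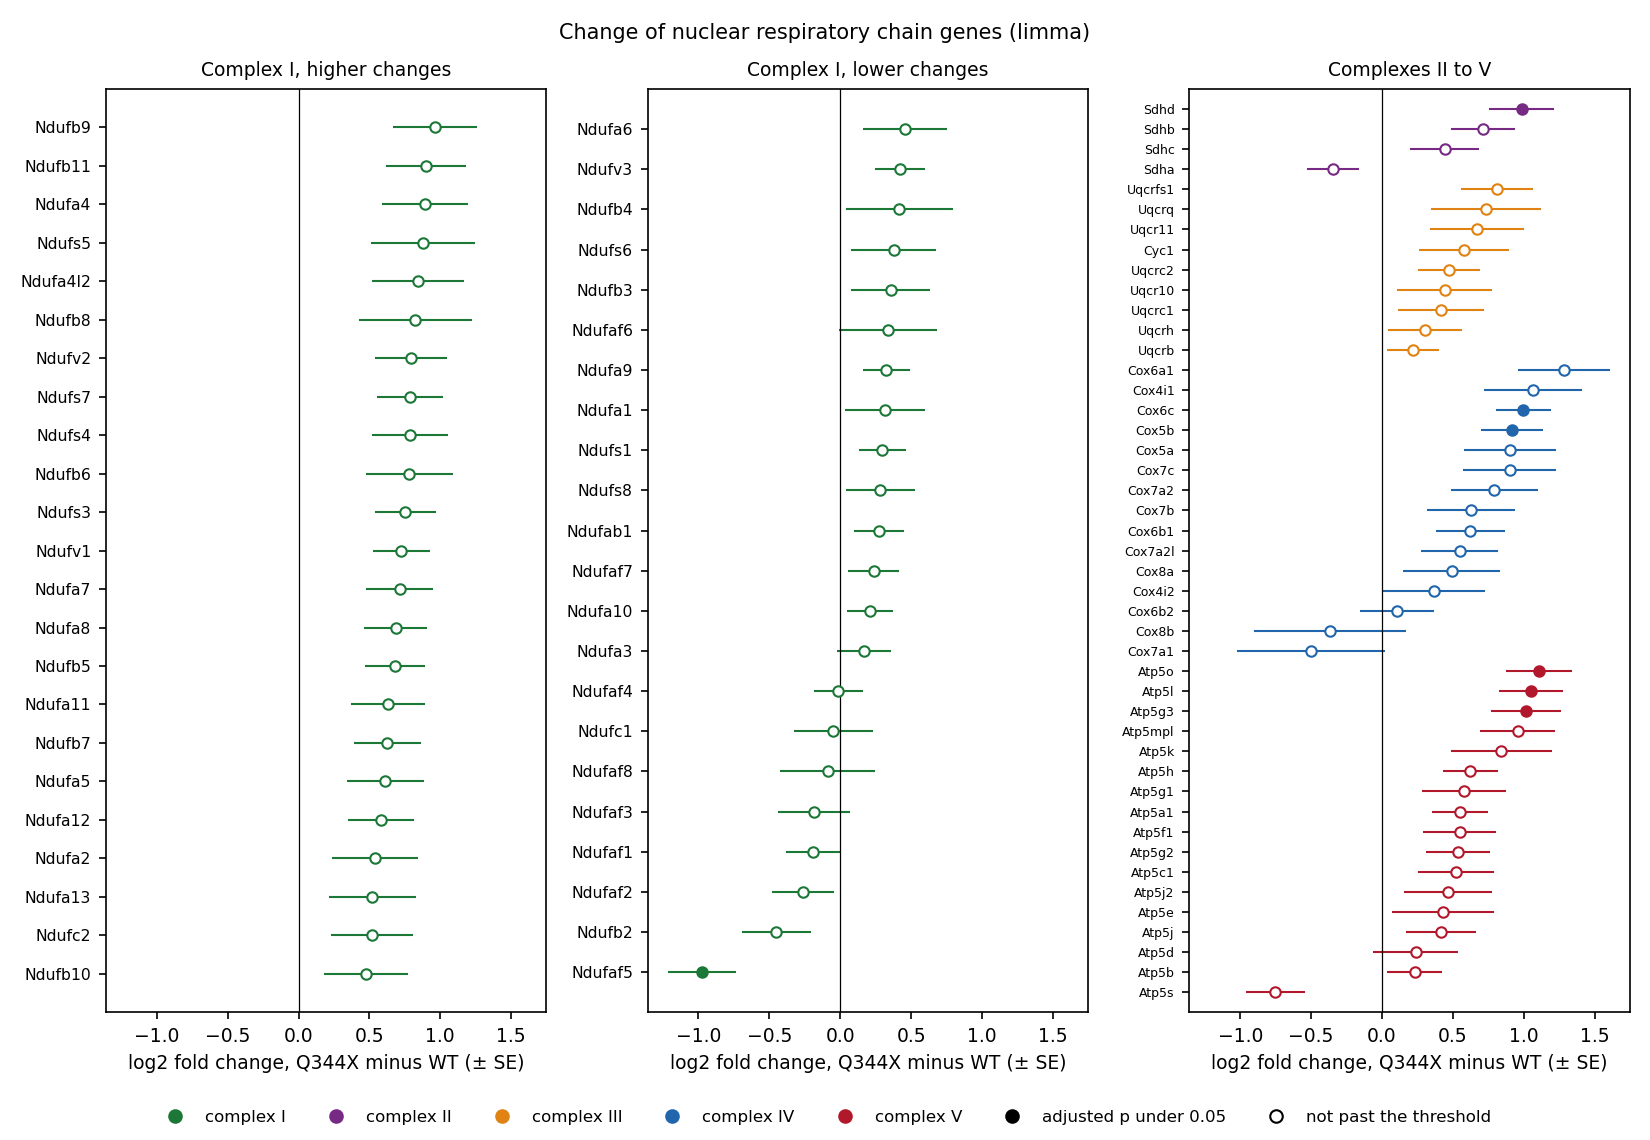
Log2 fold change of 90 of the 91 genes (Q344X minus WT, bars are 1 SE from limma, n = 2 libraries per group), coloured by complex, with filled points for an adjusted p under 0.05. The 7 filled points are Ndufaf5 on the left of 0 and Sdhd, Cox6c, Cox5b, Atp5o, Atp5l and Atp5g3 on the right, and most of the open points also lie above 0.

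Promoters of these genes are known for binding sites of NRF1, of the ETS factor GABP (NRF2) and of YY1, and RefSeq promoter windows on GRCm38.p6, 250 bases before to 50 after the start site, were searched for short cores of these sites on both strands. A window was found for 73 of the 91 genes, 5 of them with 2. The NRF1 core GCGCATG was in 15 of the 73 (20.5%), against 4.41% of all genes with a window and 7.5% of the protein-coding genes tested. The ETS core CCGGAAG was in 18 (24.7%, against 9.93% and 18.3%), and the YY1 core GATGGCG in 11 (15.1%, against 4.04% and 7.0%). The SP1 core GGGCGG was in 32 (43.8%), above the 38.2% of all genes and below the 67.8% of the protein-coding genes tested. The median log2 fold change was 0.69 with the NRF1 core and 0.48 without it, and 0.62 and 0.52 for ETS. For YY1 it was 0.41 with the core and 0.54 without it, and for SP1 0.44 and 0.62. These values are given with no test, and a match is a description of letters, not a bound site.

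The windows of 4 genes are shown because they hold cores of these factors in genes that differed in opposite directions. Capitals mark NRF1, ETS or YY1 cores on either strand, which join where matches on both strands overlap. Cox6a1 (chr5:115348909-115349208, minus strand) had the largest difference and holds all 3 cores. Atp5l (chr9:44920693-44920992, minus strand) and Cox5b (chr1:36691237-36691536, plus strand) rose, and Ndufaf5 (chr2:140170396-140170695, plus strand) fell and holds the NRF1 core in both orientations, as Cox6a1 does. All are written 5′ to 3′ in the direction of the gene.
Cox6a1: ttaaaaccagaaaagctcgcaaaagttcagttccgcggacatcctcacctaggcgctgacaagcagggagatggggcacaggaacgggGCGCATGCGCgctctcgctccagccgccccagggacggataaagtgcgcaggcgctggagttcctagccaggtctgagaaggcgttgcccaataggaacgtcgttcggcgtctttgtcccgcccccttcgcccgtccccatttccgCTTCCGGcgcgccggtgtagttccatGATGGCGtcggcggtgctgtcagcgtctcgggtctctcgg
Atp5l: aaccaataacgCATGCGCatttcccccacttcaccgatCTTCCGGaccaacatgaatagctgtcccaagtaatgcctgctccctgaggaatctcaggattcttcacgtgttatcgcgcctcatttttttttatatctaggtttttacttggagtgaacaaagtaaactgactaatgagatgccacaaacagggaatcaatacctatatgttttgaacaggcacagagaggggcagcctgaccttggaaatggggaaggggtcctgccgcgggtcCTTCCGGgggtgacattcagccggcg
Cox5b: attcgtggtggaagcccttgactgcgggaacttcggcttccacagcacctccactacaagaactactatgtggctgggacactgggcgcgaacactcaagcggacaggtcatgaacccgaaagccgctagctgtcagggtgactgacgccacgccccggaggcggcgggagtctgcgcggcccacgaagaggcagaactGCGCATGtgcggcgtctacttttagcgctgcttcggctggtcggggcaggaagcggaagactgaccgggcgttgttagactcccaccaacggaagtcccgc
Ndufaf5: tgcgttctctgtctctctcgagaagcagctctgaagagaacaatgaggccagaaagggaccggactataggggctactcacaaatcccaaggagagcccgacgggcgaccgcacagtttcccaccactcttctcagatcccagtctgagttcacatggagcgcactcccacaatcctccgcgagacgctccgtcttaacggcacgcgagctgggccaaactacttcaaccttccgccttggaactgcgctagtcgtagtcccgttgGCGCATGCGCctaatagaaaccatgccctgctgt
Atp5o and Atp5g3, which also rose, have none of these 3 cores in their windows, and Sdhd has an ETS core. For Cox6c, which rose too, no window was found.

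The difference was not even between the libraries of a genotype. Together the 91 genes took 0.761% and 0.880% of all normalized counts in WT replicates 1 and 2, 1.03% in Q344X replicate 1 and 1.49% in Q344X replicate 2. The groups did not overlap in this share, and the gap between the Q344X libraries was larger than the gap between WT replicate 2 and Q344X replicate 1. Q344X replicate 2, the library that was low in lens transcripts, was the highest of the libraries in 78 of the 91 genes (31.5% of all genes), and WT replicate 1 was the lowest in 74 (28.9%). Replicate 2 was above replicate 1 in both genotypes in 82 genes (38.8% of all genes), although the numbers only name the libraries and pair nothing. The median difference between replicates was 0.30 in WT and 0.59 in Q344X on the log2 scale, against 0.02 and 0.01 over all genes. In 45 of the 91 genes the difference between the Q344X libraries was larger than the difference between the genotypes, as it was in 41.0% of all genes. Against the WT mean, the median log2 difference of the members was 0.23 in Q344X replicate 1 and 0.87 in Q344X replicate 2. The order of the libraries was not particular to the respiratory chain. Among 80 genes of the cytosolic ribosome, Q344X replicate 2 was highest in 78 and WT replicate 1 lowest in 75. Among 77 genes of the mitochondrial ribosome these counts were 53 and 44.

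**Figure D2:**
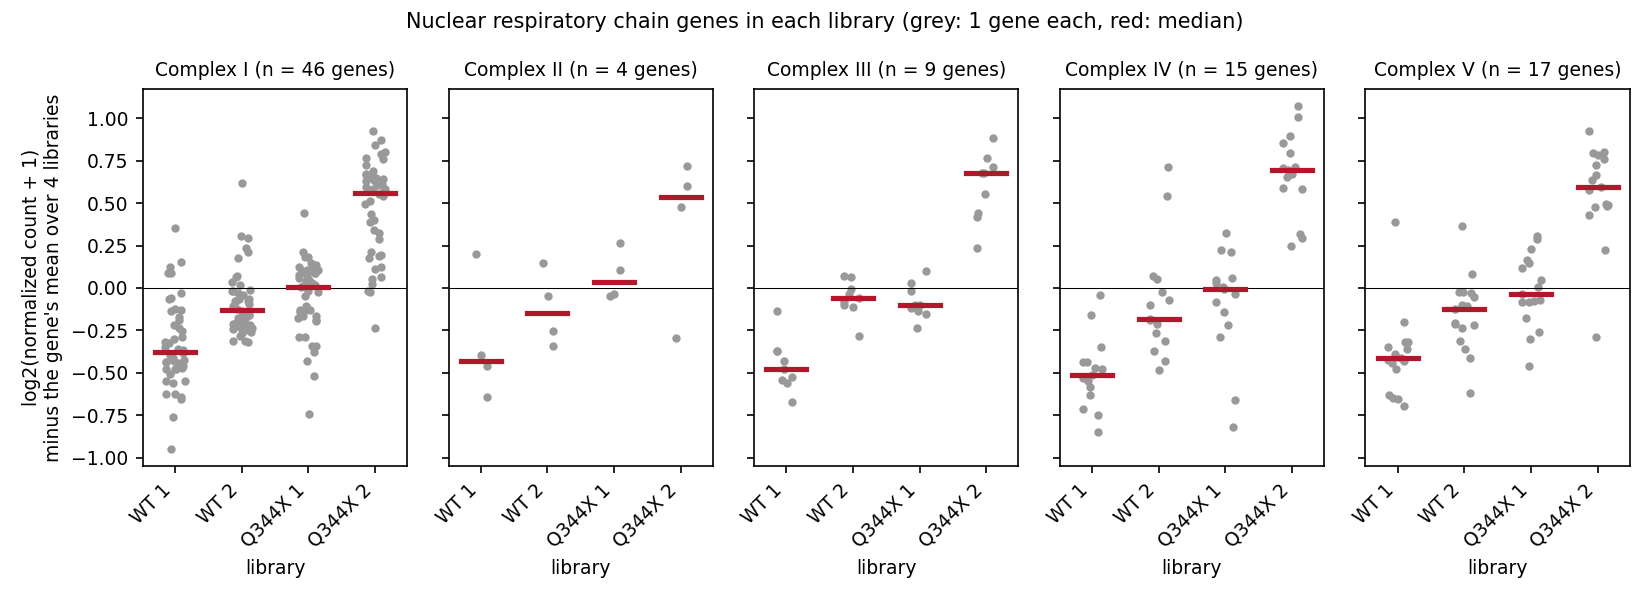
Each grey point is 1 gene in 1 library, as log2(normalized count + 1) minus that gene's mean over the libraries, and red bars are medians, in 1 panel per complex. The medians of all 5 panels are lowest in WT replicate 1 and highest in Q344X replicate 2, and in complex III the median of Q344X replicate 1 is not above that of WT replicate 2.

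Complex I was the largest group, and none of its 46 genes rose past the threshold by limma (5.46% of all genes). An unadjusted p under 0.05 by limma was found in 16 of the 46, against 34.7% of all genes in either direction. Of the 16, all but Ndufaf5 were higher in Q344X, and the share of all genes in that direction alone was not computed. The median log2 fold change of the complex was 0.47. Of its genes, 25 were higher in both Q344X libraries (31.4% of all genes), 4 were lower (31.7%) and 17 overlapped. Summed over the complex, normalized counts were 48899.8 and 57725 in WT and 63779 and 91775 in Q344X. Its 7 core subunits, which hold the cofactors that pass electrons from NADH to ubiquinone, had a median log2 fold change of 0.73. In 6 of the 7 both Q344X libraries were above both WT libraries (31.4% of all genes).

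Ndufv1, the subunit that binds NADH, had normalized counts of 2649.8 and 3225 in WT and 4360.0 and 5360.5 in Q344X. The groups did not overlap, and its log2 fold change of 0.73 ± 0.20 (SE) had an adjusted p of 0.0646 by limma. Ndufv2, its iron-sulfur partner, had counts of 1729 and 2175 in WT and 2749 and 4116 in Q344X, and a log2 fold change of 0.79 ± 0.25 with an adjusted p of 0.0867. Both flavoprotein subunits thus sat above WT in each Q344X library without passing the test. Ndufs7, which lines the ubiquinone-binding site, had a log2 fold change of 0.79 ± 0.23. Ndufs3 had 0.75 ± 0.22, Ndufs1 0.30 ± 0.17 and Ndufs8 0.28 ± 0.24, and Ndufs8 was the core subunit whose groups overlapped. Adjusted p-values of these 4 subunits ran from 0.0686 to 0.448.

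The other 30 subunits of complex I had a median of 0.53, and 28 of them lay above 0. Ndufb9, an accessory subunit of the membrane arm with the highest value of the complex, had normalized counts of 1447 and 1818 in WT and 2411 and 4144 in Q344X. Q344X replicate 2 was far above the other libraries, and its log2 fold change of 0.96 ± 0.30 had an adjusted p of 0.0797. Ndufa4, a small subunit since reassigned to complex IV, had the highest level of the group per kilobase of exon, with 2334 and 3004 normalized counts per kilobase in WT and 3723 and 6476 in Q344X. Its log2 fold change was 0.89 ± 0.30 with an adjusted p of 0.0989. Ndufb2 went the other way, with 1299 and 1433 normalized counts in WT and 815 and 1223 in Q344X and a log2 fold change of -0.45 ± 0.24 (adjusted p = 0.240).

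The 8 assembly factors named Ndufaf had smaller or negative values: their median log2 fold change was -0.14, and 2 of the 8 lay above 0. In 3 of them both Q344X libraries were below both WT libraries, against 31.7% of all genes. Ndufaf5, which hydroxylates an arginine of Ndufs7 during assembly, had normalized counts of 867 and 1043 in WT and 404 and 576 in Q344X. Both Q344X libraries were below both WT libraries. It fell from a mean of 955 ± 124 to 489.9 ± 122 (SD, n = 2 libraries each), with a log2 fold change of -0.98 ± 0.24 and an adjusted p of 0.0479 by limma. Ndufaf7, a methyltransferase needed for assembly, had 568 and 521 in WT and 670.2 and 613 in Q344X, a log2 fold change of 0.24 ± 0.18. Of the 8, Ndufaf1 and Ndufaf2 were the others lower in both Q344X libraries, with log2 fold changes of -0.19 ± 0.19 and -0.26 ± 0.22. In GENCODE, 65.6% of the exonic bases of Ndufaf2 are also annotated to a gene on the opposite strand, and no source used here gives the strand setting of the counting.

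Complex II, succinate dehydrogenase, was split between its subunits. Sdhd, a membrane anchor that holds ubiquinone, had normalized counts of 1019 and 1258 in WT and 1912 and 2628 in Q344X. The groups did not overlap, and Sdhd rose with a log2 fold change of 0.98 ± 0.23 (adjusted p = 0.0427, limma). Sdhb, the iron-sulfur subunit, and Sdhc, the other anchor, had 0.71 ± 0.23 and 0.44 ± 0.24, neither past the threshold. Sdha, the flavoprotein that oxidizes succinate, had 7393 and 7125 in WT and 6228 and 5241 in Q344X. Both Q344X libraries were below both WT libraries, with a log2 fold change of -0.35 ± 0.18 and an adjusted p of 0.231. Per kilobase of exon, Sdha and Sdhd had 1792 and 828 normalized counts in WT replicate 1 and 1727 and 1022 in WT replicate 2. They had 1509 and 1553 in Q344X replicate 1 and 1270.35 and 2135 in Q344X replicate 2. By these values Sdha was the higher of the pair in both WT libraries and the lower in both Q344X libraries, narrowly in Q344X replicate 1. That order depends on exonic length, the union of all annotated exons (4126 bases for Sdha and 1231 for Sdhd). In normalized counts Sdha was the higher of the pair in every library.

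Complex III (cytochrome bc1) had a median log2 fold change of 0.47, and all 9 genes lay above 0. None passed the limma test (14.6% of all genes in either direction) and 1 had an unadjusted p under 0.05 (34.7% of all genes). Both Q344X libraries were above both WT libraries in 4 of the 9 (31.4% of all genes), and the groups overlapped in 5. In 7 the Q344X libraries differed from each other by more than the genotypes did (41% of all genes). Uqcrfs1, the Rieske iron-sulfur protein, had normalized counts of 1311 and 1549 in WT and 2025 and 3095 in Q344X, the highest log2 fold change of the complex (0.81 ± 0.25, adjusted p = 0.0813). Cyc1, cytochrome c1, had 1541 and 2196 in WT and 2095 and 3600.2 in Q344X. Its Q344X replicate 1 lay between the WT libraries, and its log2 fold change was 0.58 ± 0.32. The core proteins Uqcrc1 and Uqcrc2 had 0.42 ± 0.30 and 0.47 ± 0.22, and Uqcrb had the lowest value, 0.22 ± 0.18. Cycs, the soluble carrier between complexes III and IV and no member of either, had 535 and 707 in WT and 543 and 758 in Q344X, a log2 fold change of 0.06 ± 0.25 (adjusted p = 0.881).

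Complex IV, cytochrome c oxidase, had the highest median of the complexes, 0.63 over 15 genes. Its summed normalized counts were 18425 and 23619.9 in WT and 29081 and 49106 in Q344X, or 0.0960% and 0.120% of all counts against 0.154% and 0.264%. Without the isoforms restricted to certain tissues, the median of the other 11 genes was 0.90. In 10 of the 11 both Q344X libraries were above both WT libraries (31.4% of all genes). Cox6c rose from 2417 and 2461 in WT to 4314 and 5501 in Q344X, and its WT libraries lay close together. Its means were 2439 ± 31.5 and 4908 ± 839 (SD, n = 2 libraries each), a log2 fold change of 0.998 ± 0.193 with an adjusted p of 0.0280 by limma, the lowest of the 91 genes. Cox5b, which binds zinc at the matrix face, rose from 1219 and 1378 to 2079 and 2887, a log2 fold change of 0.92 ± 0.22 (adjusted p = 0.0457).

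Cox6a1, a regulatory subunit near the dimer interface, had the largest difference of the 91 genes and missed the threshold. Its normalized counts were 1291 and 1725 in WT and 2693 and 4898 in Q344X. The groups were well apart but the Q344X libraries differed widely, and the log2 fold change of 1.28 ± 0.32 had an adjusted p of 0.0512. Cox4i1, an early assembling subunit with the highest normalized count of the complex, had 3717 and 5036 in WT and 6519 and 12591 in Q344X. Its log2 fold change was 1.07 ± 0.35 with an adjusted p of 0.0895. Cox8a, the smallest subunit, had the highest level per kilobase of exon (4129.6 and 5637 in WT, 4916 and 9375 in Q344X), and Q344X replicate 1 lay between the WT libraries.

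Several complex IV subunits have a second gene that is used in particular tissues, and these isoforms had low counts. Cox4i2, known from lung and hypoxic cells and from pericytes, made up 10.5% and 10.98% of the Cox4 pair in WT and 6.90% and 6.87% in Q344X, as counts per kilobase of exon. The share was lower in both Q344X libraries, with Cox4i2 itself at a log2 fold change of 0.36 ± 0.36 and Cox4i1 at 1.07 ± 0.35. Cox7a1, the heart and skeletal muscle form, made up 2.57% and 3.03% of its pair with Cox7a2 in WT and 0.983% and 1.30% in Q344X. Cox6b2, known from testis, made up 3.66% and 3.56% of its pair with Cox6b1 in WT and 2.70% and 2.41% in Q344X. Cox8b, another muscle form, made up 1.24% and 1.94% of its pair with Cox8a in WT and 0.832% and 0.874% in Q344X. In these 4 pairs the isoform's share was lower in both Q344X libraries, and the differences in share were not tested. Cox6a2, a muscle form below the minimum mean, made up 0.332% and 0.120% of its pair with Cox6a1 in WT and 0.189% and 0.0809% in Q344X, so those groups overlapped. Ndufa4l2, a hypoxia-induced relative of Ndufa4, kept shares of 2.38% and 2.47% in WT and 2.44% and 2.28% in Q344X, so its shares overlapped too. The 6 pericyte markers summed to 3235 and 2700.1 in WT and 3025 and 2562 in Q344X, and 10 muscle markers to 90.5 and 83.2 against 149 and 135. Cox7a1 (mean 19.4) and Cox8b (25.9) were the members just above the minimum mean of 10, and Cox6c2 (8.37) and Cox6a2 (3.74) the symbols just below it. Of the 7 symbols below it, 4 are annotated as processed pseudogenes, and Cox8c was at 0 in every library.

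Complex V had a median log2 fold change of 0.55, with 16 of its 17 genes above 0 (51.2% of all genes). In 12 both Q344X libraries were above both WT libraries (31.4% of all genes). Its summed normalized counts were 54325 and 63205 in WT and 71337 and 96050.0 in Q344X. Atp5o, the stalk protein OSCP that joins the catalytic head to the peripheral stalk, rose from 1597 and 1947 in WT to 3202 and 4527 in Q344X. Its means were 1772 ± 247 and 3865 ± 937, and its log2 fold change was 1.11 ± 0.23 (adjusted p = 0.0337). In GENCODE, 35.6% of the exonic bases of Atp5o are also annotated to 2 genes on the opposite strand, and 12.3% to a second entry of the same name on the same strand. Atp5l, subunit g of the membrane part, rose from 597 and 522 to 982 and 1362, a log2 fold change of 1.05 ± 0.22 (adjusted p = 0.0353). In this gene WT replicate 1 was above WT replicate 2, unlike in most of the others.

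Atp5g3 is 1 of 3 genes that encode the same subunit c of the rotor ring, and it rose from 2957 and 3634 to 5456 and 8038 (log2 fold change 1.01 ± 0.25, adjusted p = 0.0473). The other subunit c genes, Atp5g1 and Atp5g2, had log2 fold changes of 0.58 ± 0.30 and 0.54 ± 0.23 and did not pass the threshold. The catalytic head had smaller differences: Atp5a1 (alpha) had 11869 and 13099 in WT and 16399 and 20340.1 in Q344X, a log2 fold change of 0.55 ± 0.20. Atp5b (beta), with the highest level of the complex per kilobase, had 20856 and 23505 in WT and 24109.5 and 28039.6 in Q344X, a log2 fold change of 0.23 ± 0.19 (adjusted p = 0.435). Neither passed the test, although both Q344X libraries were above both WT libraries in each gene. Atp5s, a coupling factor rather than a core subunit, had 220.5 and 217 in WT and 122 and 137 in Q344X. It was lower in both Q344X libraries by a log2 fold change of -0.75 ± 0.21, with an adjusted p of 0.0630.

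Most calls were lost when either WT library was left out. Leaving out 1 library leaves a group with a single library, which is then assumed to vary like the other group. Without WT replicate 1, no member was called higher or lower by limma, when 3.32% and 5.4% of all genes were. Without WT replicate 2, 4 members were called higher and 0 lower (3.41% and 6.1% of all genes), and 1 of the 4 was among the 6 named above. The log2 fold changes of these 6 genes ran from 0.83 to 1.15 without WT replicate 1 and from 0.95 to 1.25 without WT replicate 2, with adjusted p-values of 0.0551 to 0.202 and 0.0386 to 0.133. Ndufaf5 was at -1.11 and -0.85. Without Q344X replicate 1, 63 members were called higher and 1 lower, when 14.2% and 18.1% of all genes were, and all 7 named above remained. Without Q344X replicate 2, 6 members were called higher and 2 lower (7.61% and 11.7% of all genes), and 5 of the 6 named above remained. The medians of complexes I to V were then 0.26, 0.33, 0.19, 0.34 and 0.24. A correction for exonic length and GC content in each library gave 21 members called higher and 1 lower, when 9.45% and 14.8% of all genes were, and medians of 0.48, 0.52, 0.50, 0.77 and 0.52. With no filter on low values, no member was called in either direction, when 0.496% and 1.24% of 30816 genes were. With a minimum mean of 50, 4 members were called higher and 0 lower (5.26% and 8.56% of all genes).

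Respiratory chain genes are short, with a median exonic length of 1675 bases against 4106 for all genes tested, and length moved with the differences between replicates. Across the 91 genes, Spearman's rho with exonic length was -0.46 for WT replicate 2 minus 1 and -0.49 for Q344X replicate 2 minus 1, as a description across genes that share libraries. Over all genes tested these values were -0.16 and -0.35. For the difference between genotypes rho was -0.08 across the 91 genes and also across all genes. The replicate differences of the 2 genotypes correlated with a rho of 0.75 across the 91 genes and 0.61 across all genes. Medians were also taken within length classes, for members and for protein-coding genes: up to 1000 bases the median log2 fold change was 0.52 against 0.20, and above that up to 2000 bases 0.56 against 0.21. In the next class, up to 4000 bases, it was 0.47 against 0.11, and above 4000 bases 0.42 against -0.02. Replicate differences also moved with GC content, with a rho of 0.30 in WT and 0.28 in Q344X across the 91 genes, and 0.36 and 0.35 across all genes. After the correction for length and GC content, the median replicate difference of the members was 0.21 in WT and 0.44 in Q344X, against 0.30 and 0.59 before it. The part of RNA quality in these differences was not tested.

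**Figure D3:**
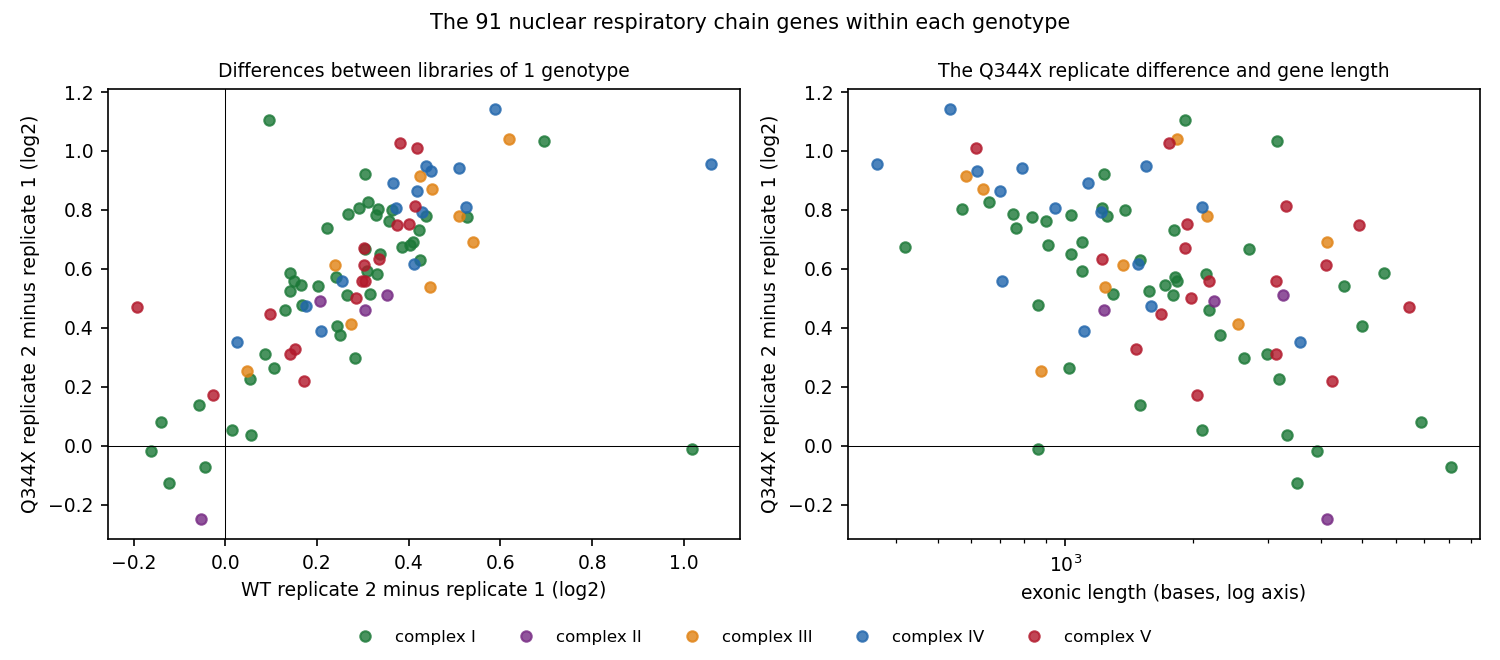
Left, WT replicate 2 minus replicate 1 (x) against Q344X replicate 2 minus replicate 1 (y) for each of the 91 genes, in log2 units. Right, the Q344X replicate difference against exonic length in bases on a log axis. Most points lie above 0 on both axes (82 of 91), and shorter genes tend to have larger replicate differences (rho -0.49).

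Other genes of mitochondrial energy metabolism were compared in the same fit. Of 38 assembly factors with other names, 4 fell and none rose, a share close to the 9.1% of all genes called lower, and the median log2 fold change was -0.05. Bcs1l, which inserts the Rieske protein Uqcrfs1 into complex III, fell from 281 and 289.8 in WT to 60.4 and 72.9 in Q344X, a log2 fold change of -2.09 ± 0.22 (adjusted p = 0.00789, limma). The groups were far apart, and Bcs1l kept its call in all 12 alternatives. Taco1, which activates translation of the complex IV subunit mt-Co1, fell by 1.25 and Coa6, which helps deliver copper to complex IV, fell by 1.24 on the log2 scale (adjusted p = 0.0189 and 0.0358). The fourth, Tmem126b, an assembly factor of complex I, fell by 0.88 (adjusted p = 0.0295) and is named because the count is small. Of 16 citric acid cycle and pyruvate dehydrogenase genes, none passed the limma test (14.6% of all genes in either direction). Their median log2 fold change was 0.20. An unadjusted p under 0.05 was found in 4 of the 16 (34.7% of all genes), of which 3 were higher and 1 lower in Q344X. Mdh2 and Cs, which have high counts in the cycle, had log2 fold changes of 0.60 ± 0.20 and 0.52 ± 0.17.

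Of 12 regulators of mitochondrial biogenesis, 1 rose and 3 fell, against 5.46% of all genes called higher and 9.1% called lower. Tfam, which packages mitochondrial DNA and activates its transcription, rose from 544 and 635 in WT to 981 and 1092 in Q344X. Its log2 fold change was 0.82 ± 0.19 (adjusted p = 0.0407, limma). Tfb1m, which methylates mitochondrial ribosomal RNA, fell from 155 and 142 to 34.6 and 29.8, a log2 fold change of -2.18 ± 0.25 (adjusted p = 0.00934). Pprc1, a coactivator of the PGC-1 family, fell by 1.51 (adjusted p = 0.0127), and Ppargc1a, which encodes PGC-1 alpha and is named because the count is small, fell by 0.81 (adjusted p = 0.0319). Nrf1 and Gabpa, factors known to bind promoters of respiratory chain genes, had log2 fold changes of 0.11 ± 0.17 and -0.26 ± 0.18.

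Mitochondrial DNA encodes partner subunits of complexes I, III, IV and V. Of 13 such messenger RNAs, 8 had a mean of at least 10, with a median log2 fold change of -0.72. Of the 8, 4 fell and none rose, against 9.1% of all genes called lower and 5.46% called higher. mt-Cytb of complex III fell from 103925 and 90352 to 49641 and 43719.8 (log2 fold change -1.06 ± 0.21, adjusted p = 0.0282, limma), and mt-Nd5, mt-Nd2 and mt-Nd4 of complex I fell by 0.90, 0.90 and 0.88. All 4 calls were lost under quantile normalization, with no filter and without either WT library. Under quantile normalization mt-Cytb was at -0.37 (adjusted p = 0.362) and the other 3 between -0.67 and -0.62. mt-Nd1, of the same complex, had a log2 fold change of 0.02 ± 0.20. mt-Co3, mt-Atp8 and mt-Nd4l were listed at 0 in every library, so the table does not measure the whole set. Among nuclear genes, 77 of the mitochondrial ribosome had a median of 0.31. None was called higher (5.46% of all genes) and 2 were called lower (9.1%), Mrps25 and Mrpl36. Those 2 are also named because the count is small, with log2 fold changes of -1.31 ± 0.19 and -1.27 ± 0.26. The 80 genes of the cytosolic ribosome had a median of 0.83, and 12 rose and none fell, against 5.46% and 9.1% of all genes.

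**Figure D4:**
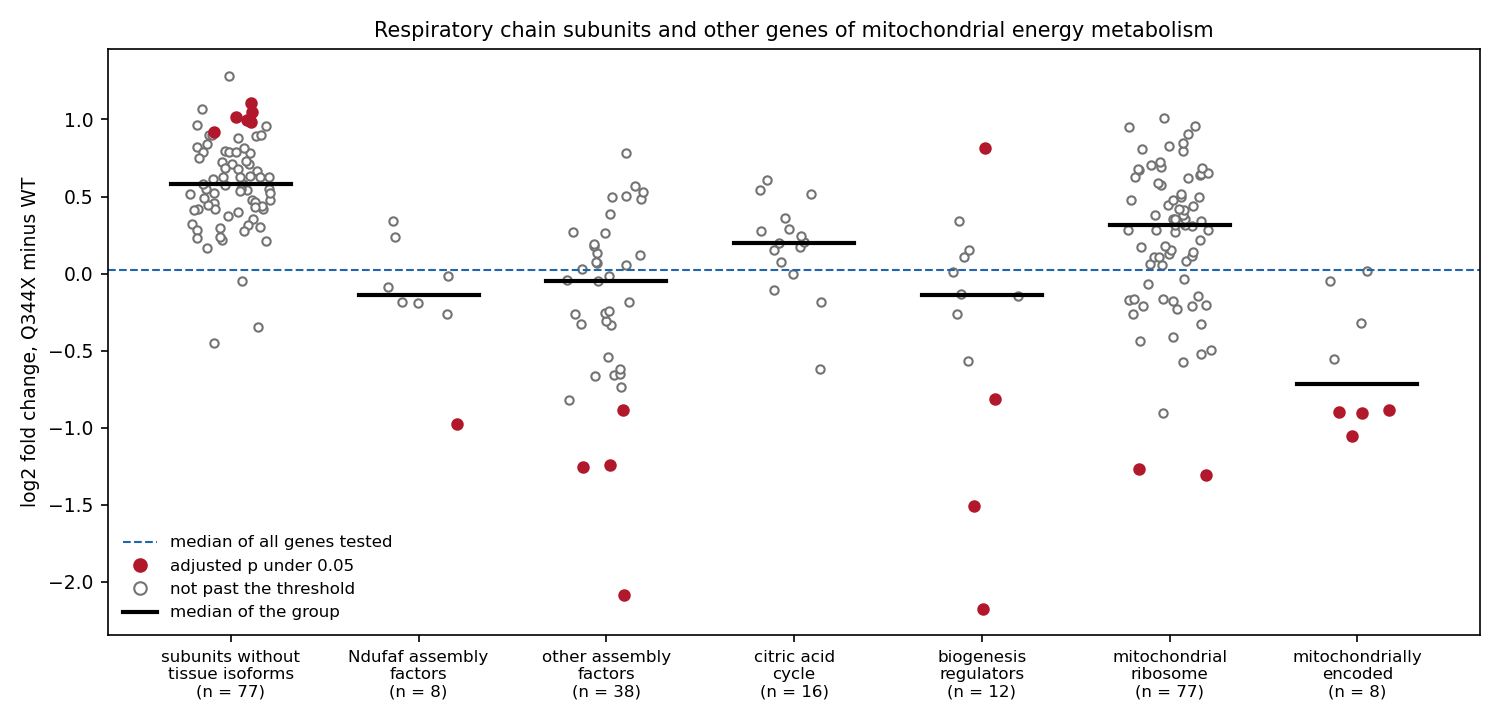
Log2 fold change (Q344X minus WT) of each tested gene in 7 groups, with the median of the group as a black bar, an adjusted p under 0.05 in red, and the median of all genes tested (0.02) as a dashed line. The 77 subunit genes without tissue isoforms, assembly factors and Atp5s have a median of 0.58, and the medians of the assembly factors, the regulators and the mitochondrially encoded genes lie below 0.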

How the data were processed

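The members, gene lists, tests and alternatives were chosen with earlier results of these data known. RNA was taken from retinas in a stabilization reagent, poly-A selected and made into directional libraries, per the labels' protocols. The deposited values are a normalized signal: the authors scaled the count of each gene by the size factor of its library. The submitters' processing notes name FastQC, Trim Galore 0.4.4, STAR, featureCounts, DESeq2 1.16.1 and the build mm10. No source used here gives the strand setting or annotation of the counting. Depth was computed from the size of 1 read in each column, and 100% of values came within 0.1 of a whole number; a unit check did not pass for 2 of the columns, so no count model was run. Symbols were paired by Ensembl identifier for 52403 genes, with lengths from GENCODE M21 (GRCm38). Exonic length is the union of all annotated exons of a gene, not the length of 1 transcript.

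Genes with a mean of at least 10 were tested in limma 3.58.1 (R 4.3.3) on log2(value + 1), with genotype as the only term, moderated variances with a trend (2 residual, 3.9 prior degrees of freedom) and Benjamini-Hochberg adjustment. All tests were two-sided. The test was also run on simulated counts, drawn for each gene independently. That simulation held no replicate difference shared between genes, so it does not cover the shared replicate differences seen here. Named were the members past the threshold, in each complex those with the highest mean and the highest and lowest change, core subunits of complex I, subunits of complex II, tissue isoforms and members around the minimum mean, and in related lists up to 3 genes. Other members were named after their values were seen. A few genes that qualified for naming are not reported here. The 12 alternatives were quantile normalization, scaling at percentile 75, robust moderation, a length and GC correction (loess, span 0.3), no filter or a minimum mean of 50, a pseudocount of 0.5 or 5, and leaving out each library.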

Additional observations from a re-analysis of the deposited data

How the results depend on the processing

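No paired analysis was possible because the replicate numbers were given in accession order and pair nothing. The counts of members called (6 higher and 1 lower) moved under the settings that follow. With no filter on low values none was called in either direction, and with a minimum mean of 50 none was called lower. The length and GC correction called 21 higher. Leaving out 1 library gave 0 to 63 members called higher and 0 to 2 called lower, and median log2 fold changes of 0.26 to 0.86 for complex I, 0.33 to 0.83 for II, 0.19 to 0.90 for III, 0.34 to 1.03 for IV and 0.24 to 0.85 for V. In each complex the lowest median came without Q344X replicate 2 and the highest without Q344X replicate 1. The cause was not tested. None of the 7 called members kept its call in all 12 alternatives: Atp5o kept it in 10, Sdhd, Cox6c and Atp5l in 9, Ndufaf5 in 8, and Cox5b and Atp5g3 in 6, while Cox6a1 was called in 5. Bcs1l, Tfb1m and Pprc1 kept theirs in all 12. With no filter the other named genes of the related lists lost theirs. Tfam, Ppargc1a, Tmem126b and the 4 called mitochondrially encoded genes lost theirs without either WT library, and Coa6, Taco1, Mrps25 and Mrpl36 without WT replicate 2, Coa6 also under quantile normalization and mt-Nd5 without Q344X replicate 2.

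Genes that changed sign were not called in the main comparison. Under quantile normalization Ndufaf8 was at 0.0694, and under the length and GC correction Ndufaf4, Ndufc1 and Atp5d were at 0.0803, 0.0588 and -0.0692. Leaving out 1 library gave ranges across 0 for 17 genes, with the negative end of most without Q344X replicate 2. Among complex I subunits these were -0.136 to 0.970 for Ndufb4, -0.0055 to 0.757 for Ndufs6, -0.0122 to 0.727 for Ndufb3, -0.0214 to 0.651 for Ndufa1 and -0.366 to 0.266 for Ndufc1. Among assembly factors they were -0.123 to 0.799 for Ndufaf6, -0.0942 to 0.0683 for Ndufaf4, -0.476 to 0.2997 for Ndufaf8 and -0.471 to 0.101 for Ndufaf3. They were -0.0162 to 0.898 for Uqcr10, -0.107 to 0.834 for Cox4i2, -0.0877 to 0.2996 for Cox6b2, -1.07 to 0.0699 for Cox7a1 and -0.897 to 0.163 for Cox8b. They were -0.0838 to 0.943 for Atp5e, -0.139 to 0.615 for Atp5d and -0.180 to 0.302 for Cycs.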

Other observations

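A transcript left out by the choice of symbols was well expressed. Ndufb1-ps, whose symbol marks a pseudogene and whose type in GENCODE is a noncoding RNA from a bidirectional promoter, had normalized counts of 592 and 810.1 in WT and 801 and 1535 in Q344X. It was 1 of 9 symbols marked -ps that were left out. Q344X replicate 2 was the highest library here too, and Q344X replicate 1 lay below WT replicate 2. The value was not tested against the members.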
